A study of Mus musculus with 11 samples.

Results

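Transcripts of 9 microglial marker genes, Cx3cr1, P2ry12, Tmem119, Csf1r, C1qa, C1qb, C1qc, Ctss and Aif1, were followed in astrocytes sorted from 4 brain regions. The genes were taken by symbol from a list of microglial markers, and all 9 were found among the 24421 gene entries of each sample. RNA had been sequenced from eGFP-positive cells of the olfactory bulb (OB, n = 3), hippocampus (HC, n = 3), cortex (CX, n = 2) and brainstem (BS, n = 3). Every sample came from 16-week-old mice on a C57BL/6 background that carried the Aldh1l1-eGFP transgene, a bacterial artificial chromosome in which regulatory DNA of the astrocytic gene Aldh1l1 drives the fluorescent protein. Mice of both sexes were used, no treatment is listed, and the groups differ by the region dissected. The collected cells were therefore those sorted by fluorescence from one reporter, and neither a second marker of astrocytes nor an antibody against microglia is described for the sort in the sources used here. The labels do not say whether replicates were separate animals, so p-values measure the spread between these samples, which may be partly technical.

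Microglia are the resident macrophages of the brain and derive from precursors that enter it during embryonic life. They survive through signals received by the kinase receptor Csf1r, sense neurons through the fractalkine receptor Cx3cr1, and extend processes towards released nucleotides through the purinergic receptor P2ry12. C1qa, C1qb and C1qc encode the 3 chains of C1q, which starts the classical complement pathway and in the brain is made mainly by microglia. Tmem119 is a surface protein used to tell microglia from other macrophages, Ctss is the lysosomal cysteine protease cathepsin S, and Aif1 encodes the actin-binding protein Iba1, a standard immunostain for microglia.

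Promoter sequence is shown for C1qb, C1qc and Ctss, 3 members that hold the letters GAGGAA, the core bound by PU.1-type ETS factors of macrophages. That of P2ry12, the member that differed between regions, is shown as well. RefSeq promoter entries on GRCm38.p6 were found for 6 of the 9 members (not C1qa, Tmem119 or Csf1r). The 250 bases before the start site given there held GAGGAA, on either strand, in 4 of the 6 (C1qb, C1qc, Ctss and Aif1), against 23.3% of 32851 promoters. The consensus of the composite ETS-IRF element was found in 0 of the 6 and in 2.30% of all promoters. Capitals mark GAGGAA, or TTCCTC where it lies on the opposite strand, and each sequence runs 5′ to 3′ on the strand of its gene. Start sites are those of the RefSeq entries, and that of C1qc lies inside the span of its gene. In C1qb the letters lay 30 to 25 bases before the start, in C1qc 193 to 188, and in Ctss 164 to 159. A match in the letters is a description and was not tested as a binding site.
C1qb, minus strand, chr4:136886201-136886450: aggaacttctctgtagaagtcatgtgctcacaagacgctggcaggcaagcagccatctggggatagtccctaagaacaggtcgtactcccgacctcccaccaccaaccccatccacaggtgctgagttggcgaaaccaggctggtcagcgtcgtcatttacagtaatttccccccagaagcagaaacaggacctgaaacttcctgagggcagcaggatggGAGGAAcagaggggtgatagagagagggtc
C1qc, minus strand, chr4:136892915-136893164: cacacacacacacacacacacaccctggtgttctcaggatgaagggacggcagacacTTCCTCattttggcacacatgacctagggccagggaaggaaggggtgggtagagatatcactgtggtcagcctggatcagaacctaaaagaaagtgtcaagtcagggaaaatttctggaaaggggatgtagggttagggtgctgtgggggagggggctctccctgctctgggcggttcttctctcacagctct
Ctss, plus strand, chr3:95526536-95526785: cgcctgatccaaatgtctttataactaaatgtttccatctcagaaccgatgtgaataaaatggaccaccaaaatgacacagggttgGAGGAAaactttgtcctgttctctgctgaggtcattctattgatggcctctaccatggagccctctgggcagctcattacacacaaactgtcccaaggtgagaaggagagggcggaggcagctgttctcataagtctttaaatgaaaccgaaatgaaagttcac
P2ry12, minus strand, chr3:59262986-59263235: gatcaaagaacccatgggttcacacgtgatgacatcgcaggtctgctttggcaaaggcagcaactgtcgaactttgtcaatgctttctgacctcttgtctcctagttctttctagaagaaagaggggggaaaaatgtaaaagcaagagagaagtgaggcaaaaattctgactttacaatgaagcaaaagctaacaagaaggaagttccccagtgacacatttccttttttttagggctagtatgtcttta

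The deposited value of a gene is its read count divided by 1 size factor per sample. Reads on genes ranged from 2830746 to 14151670 per sample, and 1 read was worth a value of 0.367 to 2.10. Rn45s, the precursor of ribosomal RNA, took 0.966% to 2.93% of the reads in the OB and HC samples and 18.0% to 25.6% in the CX and BS samples, so that this residue and the region cannot be told apart between those pairs of regions. All 12 genes of an astrocyte list were detected, and their median level per kilobase of exon was 1528 in the median sample, 10.4 times that of the 9 microglial genes at 147. Choroid plexus genes such as Ttr also differed between regions. Their summed value was 222 to 326 (OB), 1815 to 5087 (CX), 72587 to 147094 (HC) and 52598 to 247719 (BS), with the HC range inside that of the BS. In the OB and the HC, replicate 3 stood apart from the other replicates in the microglial genes. The regional tests, the spread and the correlations are therefore also given without both of these libraries, an omission chosen after their values were seen. By its construction the omission narrows the spread within the OB and the HC and raises the levels of the members there.

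To examine how much microglial RNA the sorted samples held, the values of the 9 genes were summed. The sum was 3686, 4194 and 1501 in OB replicates 1, 2 and 3. It was 5135, 5482 and 1688 (HC), 2238 and 2849 (CX), and 2206, 1733 and 3098 (BS). These sums corresponded to 0.0279% to 0.111% of all reads. The means were 3127 ± 1431 (SD, n = 3) for OB samples, 4102 ± 2098 (SD, n = 3) for HC samples, 2543 ± 432 (SD, n = 2) for CX samples and 2346 ± 693 (SD, n = 3) for BS samples. Highest and lowest replicates differed 2.79-fold within the OB and 3.25-fold within the HC, against 3.65-fold over all 11 samples, so that most of the range of the series lay between replicates of 1 region. In bulk samples, fewer cells of a type and less RNA per cell cannot be told apart.

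Per kilobase of exon, Ctss was the most abundant of the 9 transcripts, with a median level of 432, followed by C1qb at 308, C1qc at 194, P2ry12 at 167 and Csf1r at 158. C1qa had a median of 84.0 per kilobase, Cx3cr1 50.4, Aif1 35.4 and Tmem119 19.8. The exon length of Cx3cr1, 4505 bases in GENCODE, includes exons of a transcript that runs beyond the RefSeq gene, and a shorter length would raise its level. In every sample each of the 9 genes was detected.

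**Figure D1:**
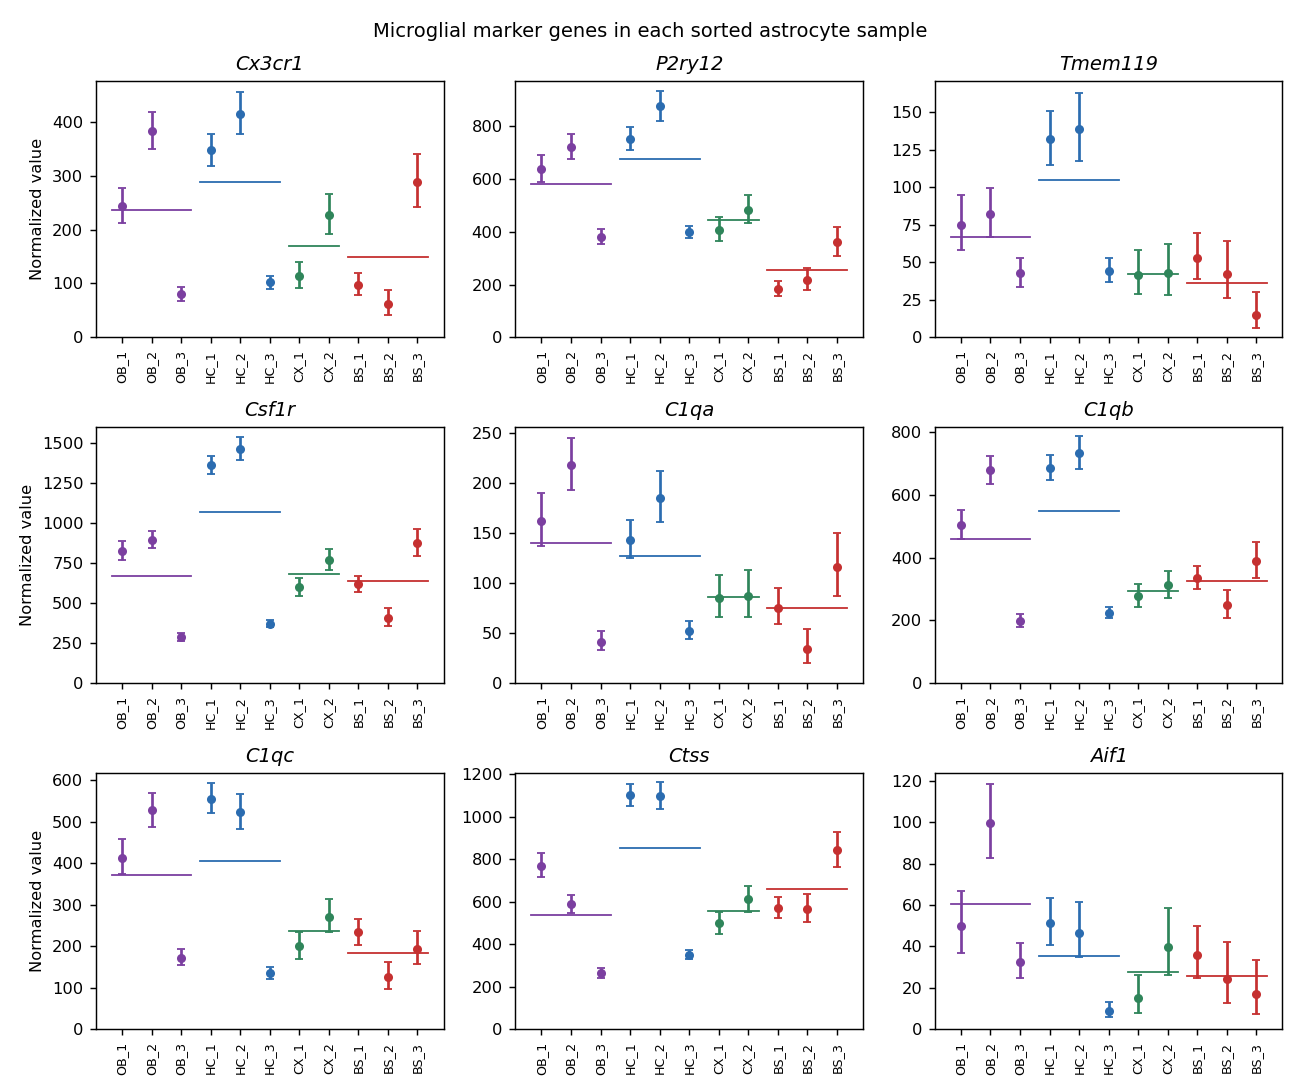
Deposited normalized value (vertical axes, linear and starting at 0) of each of the 9 microglial genes in the 11 sorted samples (horizontal axes). Points are samples, vertical bars the exact 95% Poisson interval of the read count behind each value, which covers counting error only, and horizontal lines the mean of a region; OB and HC replicate 3 lie below the other replicates of their region in every panel.

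Among the surface receptors, P2ry12 (chromosome 3 from 59216271 to 59262985 of GRCm38) was the only member with a difference between regions that passed the test over all 11 samples. Its value was 639, 723 and 380.3 in OB replicates 1 to 3, 754, 876 and 399 (HC), 408 and 485 (CX), and 184, 218 and 359.9 (BS). All 3 BS samples lay below the other 8, a place held by 4.19% of the 13875 genes tested. In the limma test across the 4 regions, 16.5% of all genes passed an adjusted p of 0.05, and of the 9 members 1 did, P2ry12 (adjusted p = 0.0221). This call was lost without the mean-variance trend (adjusted p = 0.127), with samples scaled to the astrocyte list (0.273), and without HC replicate 2 (0.0503), BS replicate 1 (0.0974) or BS replicate 2 (0.0609). The same test gave Tmem119 an adjusted p of 0.193 and the other 7 members 0.435 to 0.756.

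OB and HC replicate 3 were left out because the members were low in them, which by construction raises the OB and HC levels. Between OB and BS, the log2 fold change of C1qc was 0.90 with all samples. The calls without these libraries therefore show a dependence on them and are not tests of the regions. Without OB and HC replicate 3, limma called 4 of the 9 members across the regions, P2ry12 (adjusted p = 0.00239), C1qc (0.00406), C1qb (0.00689) and Csf1r (0.0380), where 11.7% of 13726 genes were called. Between OB and BS, where 10.3% of genes were called, C1qc (log2 fold change 1.38), C1qb (0.87) and C1qa (1.47) were then called beside P2ry12 (1.48), each higher in the OB. Between HC and BS, with 2.76% called, C1qc (1.59), Csf1r (1.22) and C1qb (1.15) were called beside P2ry12 (1.73), each higher in the HC. C1qb was also called higher in the HC than in the CX (1.27, adjusted p = 0.0444), a pair with 0.729% called. Which members were called thus rested on these 2 libraries, except for P2ry12, which was called with and without them.

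Against all other regions pooled, P2ry12 was 2.28 times lower in the BS, with a log2 fold change of -1.19 ± 0.28 (SE) and an adjusted p of 0.0269. In that comparison 3.42% of all genes were called lower and 5.42% called in either direction, and P2ry12 was the 1 member called. It was called as well between pairs of regions, where it was 2.29 times higher in the OB than in the BS (log2 fold change 1.197 ± 0.32 SE, adjusted p = 0.0179), a pair with 15% of genes called. In the HC it was 2.62 times higher than in the BS (log2 fold change 1.39 ± 0.32 SE, adjusted p = 0.0178), a pair with 4.63% called. Both pair differences share the BS samples. They were lost without the trend (adjusted p = 0.0842 and 0.107) and under astrocyte list scaling (0.276 and 0.247). Leaving out BS replicate 1 ended both (0.0759 and 0.0666), OB replicate 1 (0.0702) or 2 (0.0938) that of the OB, and HC replicate 1 (0.0579) or 2 (0.104) that of the HC. Between CX and BS its log2 difference of 0.87 had a 95% interval of 0.11 to 1.62 and an adjusted p of 0.139. The BS difference was lost without BS replicate 1 (log2 fold change -0.99, adjusted p = 0.164) or BS replicate 2 (-1.11, adjusted p = 0.0759), and held without OB replicate 3 (-1.27, adjusted p = 0.0217) and without HC replicate 3 (-1.26, adjusted p = 0.0242), and without both (-1.36, adjusted p = 0.0166). Scaling every sample to the mean of the astrocyte list moved the median of all genes in the BS up by 0.52 on the log2 scale and left P2ry12 at -0.66 against a median of 0.53 (adjusted p = 0.238). Without the mean-variance trend its adjusted p was 0.0678. Med12l, on the opposite strand, overlaps exons of P2ry12. Its mean value was 319 (OB), 186 (HC), 171 (CX) and 209 (BS), and whether the counting used strand was not given, so a contribution of its reads to P2ry12 was not tested. Nor was that of the choroid plexus RNA and the Rn45s residue of the BS samples.

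Cx3cr1 (chromosome 9 from 120048683 to 120068296) had the largest SD within regions of the 9 genes, 1.08 on the log2 scale. It was at 243, 383 and 80.3 (OB), 347, 415 and 102 (HC), 113 and 227 (CX), and 96.7, 62.1 and 288 (BS). The 4 regions overlapped, and in the BS 1 sample was 4.64 times another. Csf1r (chromosome 18 from 61105572 to 61131139) was at 829.6, 898 and 290.3 (OB), 1364, 1466 and 373 (HC), 601 and 771 (CX), and 620.3, 411 and 878 (BS). Its highest values were those of HC replicates 1 and 2, but HC replicate 3 lay below every CX and BS sample. Hmgxb3, which overlaps Csf1r exons from the opposite strand, had values of 22.6 to 101. Tmem119 (chromosome 5 from 113793729 to 113800396) was at 74.9, 82.1 and 42.6 (OB), 132, 139 and 44.4 (HC), 41.5 and 42.9 (CX), and 52.6, 42.1 and 14.7 (BS). Between HC and BS its log2 difference was 1.51 ± 0.53 (SE), with an adjusted p of 0.139. This was the largest difference of any member between a pair of regions, and it did not pass the test.

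The 3 C1q genes lie side by side on the minus strand of chromosome 4, C1qb from 136880126 to 136886200, C1qc from 136889801 to 136892936 and C1qa from 136895916 to 136898844. C1qa was at 162, 218 and 41.5 (OB), 143, 185 and 52.5 (HC), 85.4 and 87.4 (CX), and 75.7, 34.1 and 116 (BS). C1qb was at 504, 677 and 199 (OB), 686, 733 and 224 (HC), 276 and 313 (CX), and 335, 248 and 389 (BS). C1qc was at 414, 527 and 172 (OB), 556, 523 and 134 (HC), 199.8 and 271 (CX), and 233, 126 and 194 (BS). All 3 chains were lowest of their region in OB, HC and BS samples of low summed value, namely OB replicate 3, HC replicate 3 and BS replicate 2. The ratio of C1qb to C1qc values stayed between 1.15 and 2.01 over the 11 samples, a narrower range than that of C1qb itself. Over all 11 samples none of the 3 was called in any comparison of regions, the largest log2 fold change in the BS being that of C1qc at -0.78 (95% interval -1.69 to 0.13).

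Ctss (chromosome 3 from 95526786 to 95556405) was at 769.9, 587 and 262 (OB), 1103, 1098 and 351 (HC), 498 and 612 (CX), and 572, 567 and 842 (BS). It was the 1 member whose BS mean was not below that of the remaining samples, its log2 fold change being 0.13 (95% interval -0.68 to 0.94) by limma and -0.028 by edgeR. Aif1 (chromosome 17 from 35170986 to 35176083) was at 49.95, 99.5 and 32.3 (OB), 51.2, 46.6 and 8.81 (HC), 15.1 and 39.9 (CX), and 35.7, 24.0 and 16.8 (BS). Its OB fold change was the largest of any member in that region, at 1.05 on the log2 scale with an interval of -0.10 to 2.21, and its groups overlapped.

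By region means, the HC was highest for 7 of the 9 genes and the OB for C1qa and Aif1. The BS was lowest for 7 genes, the CX for C1qb and the OB for Ctss. The ratio of the highest to the lowest region mean ran from 1.58 for Ctss to 2.88 for Tmem119. The P2ry12 differences of OB and HC from BS were the only ones between pairs of regions to pass the test over all 11 samples, so no neighbours in these orders were separated beyond the spread between samples. Of the 9 members, 0 passed in the OB, HC or CX against the other samples by limma, where 4.58%, 0% and 0.0144% of all genes passed. At an unadjusted p under 0.05 there were 0, 1 and 0 members, and edgeR and DESeq2 also called 0 in each. Over all genes the HC comparison gave 0 calls by limma and by edgeR, 93 by DESeq2, and 789 at an unadjusted limma p under 0.05. In the pairs OB and HC, OB and CX, HC and CX, and CX and BS, where limma called 7.11%, 4.91%, 1.23% and 10.9% of all genes, it called 0 members, with 0, 0, 0 and 1 at an unadjusted p under 0.05, and edgeR and DESeq2 called 0 as well. The median log2 fold change of the 9 genes was -0.65 in the BS, where 8 of 9 were below 0, and 0.49 in the HC, where 8 of 9 were above 0. In the CX 8 of 9 were below 0 as well (median -0.17), and in the OB 2 of 9 (median 0.31). Of all genes tested, 48.7% (BS), 48.0% (HC), 52.0% (CX) and 48.4% (OB) were below 0. The members moved together across samples, so these counts do not stand for 9 separate observations. The median over all genes tested was 0.02 in the BS and in the HC. Scaled to the astrocyte list, which moved all genes in the BS up, 5 of the 9 members were below 0 there, and their median was -0.12 against 0.53 for all genes. The comparisons of single regions with the rest share samples and are not independent. With the study's own thresholds (unadjusted p under 0.01, more than 1.5-fold, 2 or more replicates of 1 region above 5), P2ry12 in the BS was again the 1 member called, where 5.05% of genes were called lower.

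**Figure D2:**
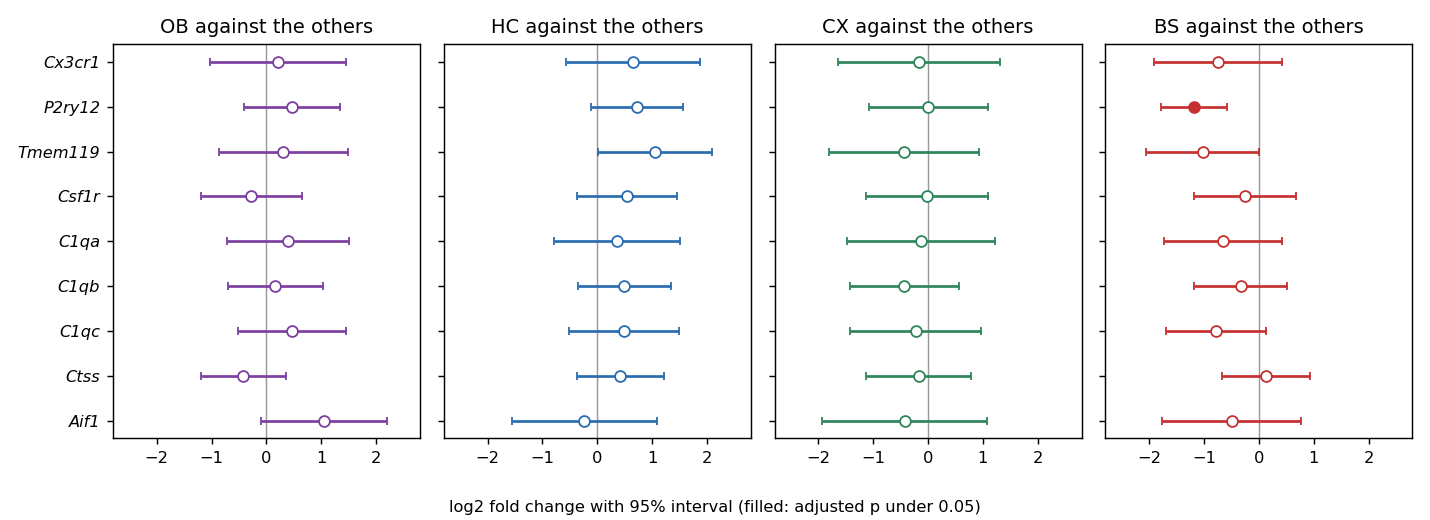
Log2 fold change (horizontal axes) of each microglial gene (rows) in 1 region against the samples of the other regions, with 95% intervals from limma as bars and filled points for an adjusted p under 0.05. P2ry12 (BS), at -1.19, is the single filled point, and nearly all other intervals cross 0.

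Next, the make-up of the microglial signal was compared between samples, as the share of each gene in the sum. P2ry12 made up 8.34% to 12.6% of the summed value in the BS and 14.7% to 25.3% in the other regions, without overlap. This share rests on the same values as the BS call of P2ry12 and is not separate evidence for it. How often shares of other genes fail to overlap was not counted. Its mean share was 10.9% ± 2.23 (SD, n = 3) for BS samples, 19.97% ± 4.65 (SD, n = 3) for OB samples, 18.1% ± 4.83 (SD, n = 3) for HC samples and 17.6% ± 0.877 (SD, n = 2) for CX samples. The ratio of P2ry12 to Csf1r was 0.297 to 0.532 in the BS and 0.553 to 1.31 elsewhere. Ctss took the opposite place, with 25.9% to 32.7% of the sum in the BS and 14.0% to 22.2% in the other 8 samples. Shares add up to the whole, so a lower share of P2ry12 by itself raises those of the other members. In OB and HC replicate 3, which had the lowest sums of their regions, P2ry12 had its largest shares, 25.3% and 23.6%. The sample of lowest sum also had the largest P2ry12 share of its region in the CX (replicate 1, 18.2%) and the BS (replicate 2, 12.6%). The share was therefore not independent of the summed value. The ratio of Tmem119 to P2ry12 was 0.112 to 0.117 over the OB samples and 0.0409 to 0.286 over the BS samples, where Tmem119 rested on 7 to 50 reads.

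**Figure D3:**
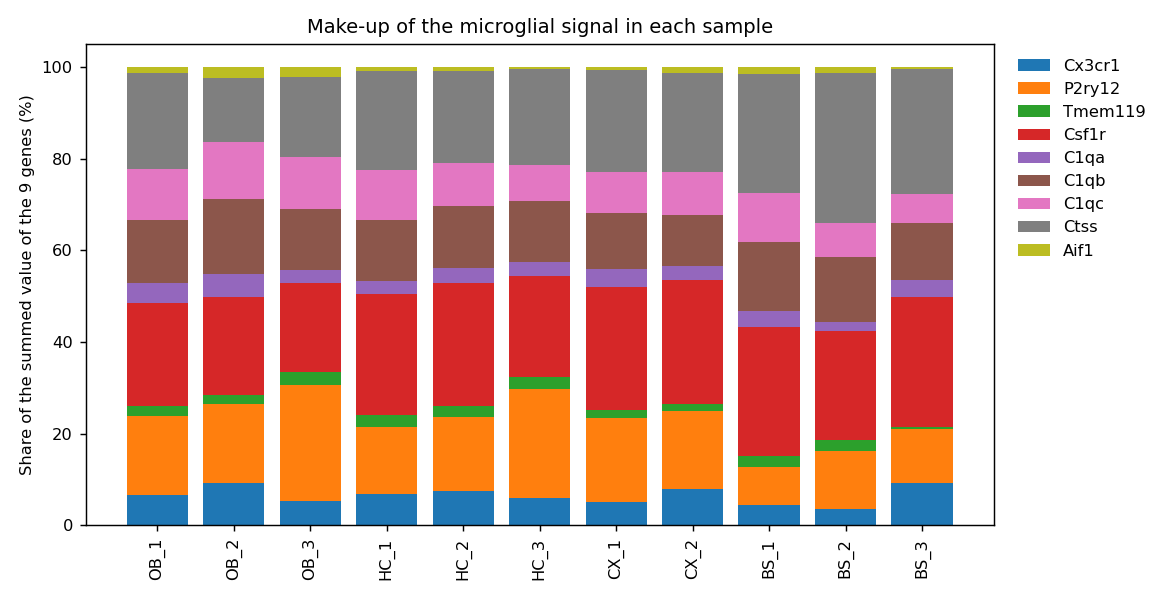
Share of the summed normalized value of the 9 microglial genes taken by each gene (stacked bars, percent, starting at 0) in each of the 11 samples. The P2ry12 band is 8.34% to 12.6% of the bar in the BS samples and 14.7% to 25.3% in the others.

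To compare the spread between regions with that between replicates, the sum of squares of log2(value + 1) was split for each gene. The share lying between regions had a median of 18.5% over the 9 members, from 12.6% for Csf1r to 66.2% for P2ry12, and a median of 43.9% over all 13875 genes. With 4 regions in 11 samples, a share above 0 arises even where regions do not differ. That baseline rises when samples are left out, so shares from different sets of samples are not directly comparable. The SD within regions had a median of 0.81 on the log2 scale, from 0.50 for P2ry12 to 1.08 for Cx3cr1, against 0.45 over all genes. Cx3cr1 thus varied more within regions than 86.5% of genes. Counting error alone gave an SD of 0.06 for Csf1r to 0.30 for Aif1, and the observed SD exceeded it in each of the 9 genes, 13.7-fold for Csf1r. Counting error was thus smaller than the spread of every member. The share between regions rose to a median of 41.4% without OB replicate 3 and 51.9% without HC replicate 3, while it was as low as 12.5% when another sample was left out. Without both of these libraries the median share was 76.3% and the median SD within regions 0.37, against 51.1% and 0.45 over all genes. Both were left out because the members were low in them. The shift of the members against all genes therefore follows from that choice and is not separate evidence.

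**Figure D4:**
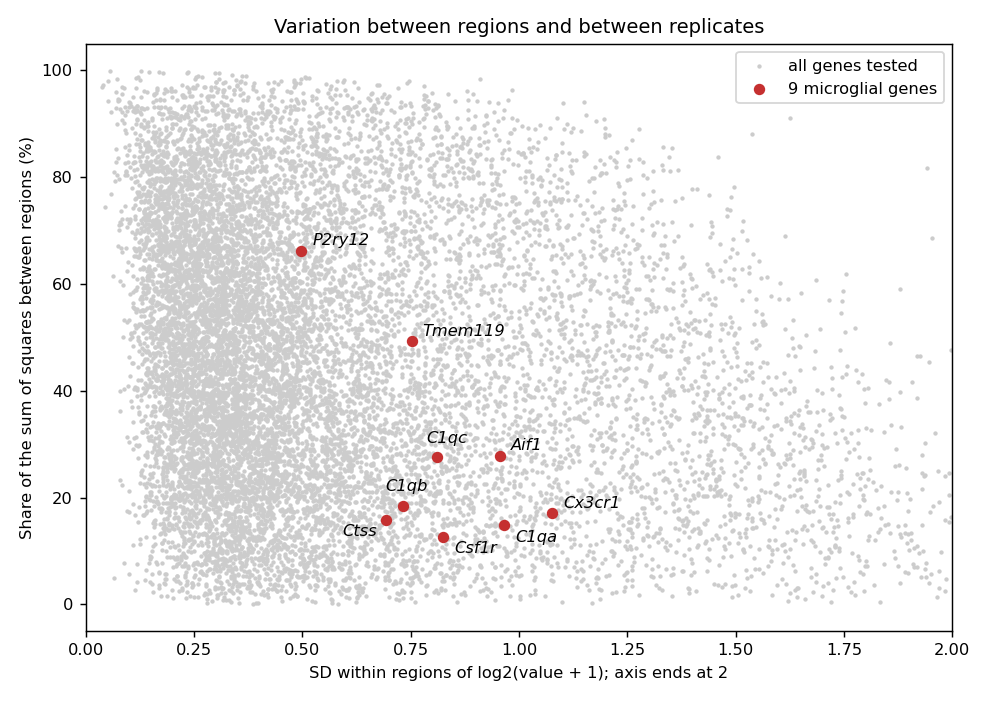
SD within regions of log2(value + 1) (horizontal axis, drawn to 2; genes beyond are not shown) against the share of the sum of squares that lies between regions (vertical axis, percent) for all genes tested (grey) and the 9 microglial genes (red). P2ry12 sits at 0.50 and 66.2%, Tmem119 at 0.75 and 49.2%, and the other 7 at shares of 12.6% to 27.8%.

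OB replicate 3 had the lowest value of its region in 9 of 9 members, a place it held in 33.2% of all genes, and HC replicate 3 did so in 9 of 9 against 34.3% of all genes. Both were the deepest libraries of their region, with 9425474 and 14151670 reads. OB replicate 2 was highest in 8 of 9 members (34.7% of all genes) and HC replicate 2 in 6 of 9 (30.9%). In the BS, replicate 2 was lowest in 6 of 9 members (38.2%) and replicate 3 highest in 6 of 9 (30.7%). The same libraries were low in the rest of the microglial genes, where OB replicate 3 was lowest in 35 of 35 tested genes of a wider microglial list and HC replicate 3 in 33 of 35.

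Several other cell type lists moved with the members in these libraries, but the astrocyte and choroid plexus lists did not. OB replicate 3 was lowest in 11 of 12 endothelial and pericyte genes, 8 of 9 border macrophage genes and 12 of 12 genes of the dissociation response, the immediate-early and stress genes that rise when tissue is dispersed. For HC replicate 3 the counts were 11 of 12, 7 of 9 and 11 of 12. Oligodendrocyte genes were lowest in these 2 libraries in 8 of 11 and 10 of 11, and neuron genes in 8 of 12 and 9 of 12. Choroid plexus genes were lowest in 1 of 10 and 0 of 10, and in the HC it was replicate 2 that was lowest in 10 of 10. Astrocyte genes were lowest in 0 of 12 and 1 of 12. They were highest in 8 and 9 of 12, a place these libraries held in 31.5% and 33.1% of all genes. The 12 dissociation genes summed to 2194 to 4741 (OB), 445 to 6879 (HC), 1430 to 1955 (CX) and 1136 to 6616 (BS). The 12 vascular genes summed to 736 to 2250 (OB), 972 to 4584 (HC), 1167 to 2974 (CX) and 2490 to 3597 (BS). No gene of the vascular, border macrophage or dissociation lists was at 0 in every sample. The part of these genes in the spread of the microglial ones was not tested. As a mean over the 9 members, log2 values lay 0.95 below the region mean in OB replicate 3 and 1.16 below it in HC replicate 3, and the astrocyte list lay 0.13 and 0.27 above.

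**Figure D5:**
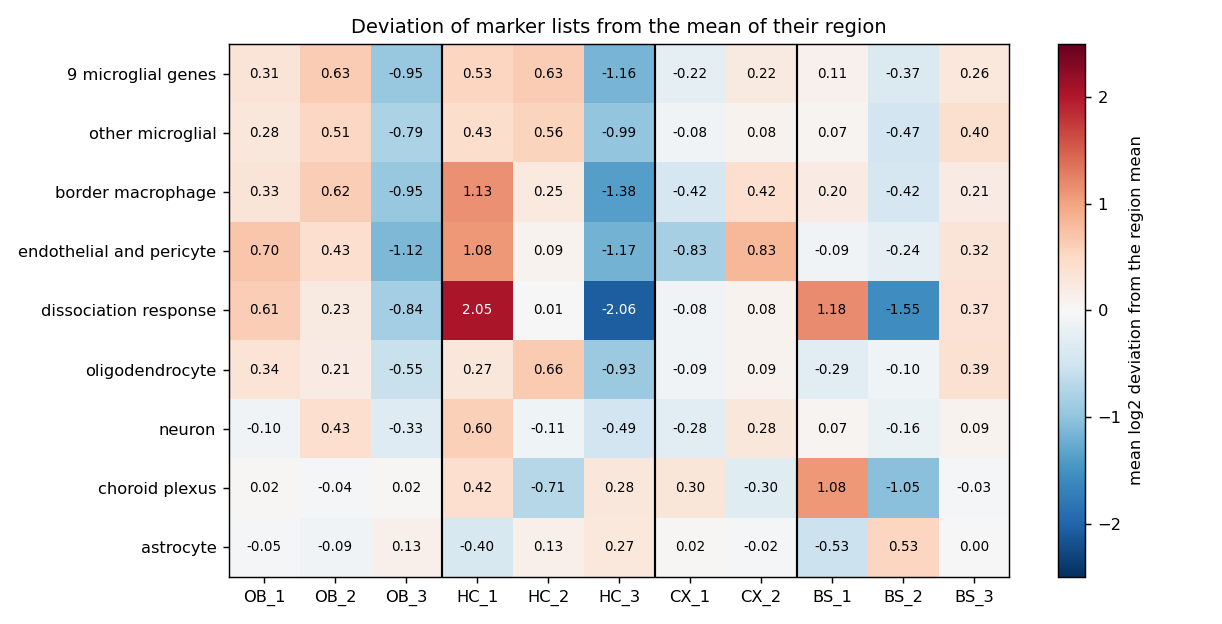
Mean deviation of each gene list (rows) from the mean of its region, on the log2(value + 1) scale, in each sample (columns; black lines part the regions). The 9 microglial genes, the wider microglial list and the vascular, border macrophage and dissociation lists are all below 0 in OB and HC replicate 3. In these samples the astrocyte list is at 0.13 and 0.27 and the choroid plexus list at 0.02 and 0.28.

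Levels of the 9 genes followed each other across the 11 samples. Pearson's r was positive for 36 of 36 pairs, with a median of 0.742 and a range of 0.407 to 0.938, and Spearman's rho ranged from 0.5 to 0.982. After adjustment over the 36 pairs, 25 passed by r and 29 by rho (permutation tests, 100000 resamples). How often pairs of other genes pass was not counted. Several other lists were low in the same libraries, so moving together is not shown to be particular to the members. C1qb and C1qc had the highest r, 0.938 (rho 0.873, adjusted permutation p = 0.00102 and 0.00291, r = 0.897 without the 2 samples farthest from the median). Cx3cr1 and C1qa followed with r = 0.935 (rho 0.955, adjusted permutation p = 0.00072 and 0.0009, r = 0.884 without those 2). The lowest were Ctss with Aif1, at r = 0.407 (rho 0.609, adjusted permutation p = 0.215 and 0.0568), and Tmem119 with Ctss, at r = 0.410 (rho 0.5, adjusted permutation p = 0.215 and 0.122). Without the 2 farthest samples 35 of the 36 r remained above 0, and that of Tmem119 with Ctss was -0.14. As deviations from the region means the median r was 0.869, from 0.221 to 0.982, so that the genes also moved together between replicates of 1 region. Without OB and HC replicate 3 the r across the other 9 samples was positive for 36 of 36 pairs (0.251 to 0.940, median 0.766), and 22 pairs passed by r and 27 by rho (permutation tests, adjusted). The deviations within regions then had a median r of 0.566, from -0.91 to 0.948, with 26 of 36 above 0, lower than with these 2 libraries.

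The genes whose pattern was most like the mean z-score of the 9 members were then taken from the 11284 other genes with a mean value of at least 20. Tyrobp, the signalling adaptor of microglial receptors, came first (r = 0.95 over 11 samples), and the first 10 also held Rgs10 (0.943), Blnk (0.925), Hpgds (0.906), Nckap1l (0.904), Laptm5 (0.893), Erf (0.893), Siglech (0.889) and Slc1a1 (0.889). Of these 10, 7 belonged to the wider microglial list, as did 17 of the first 50. The median r was 0.80 for the 33 candidates from that list and -0.01 for all candidates. Other lists also lay above all candidates, with medians of 0.56 (border macrophage), 0.56 (dissociation response), 0.50 (endothelial and pericyte) and 0.35 (ligands and partners). Activation genes were at 0.21, oligodendrocyte genes at 0.08, neuron genes at 0.06, choroid plexus genes at -0.11 and astrocyte genes at -0.33. Likeness to the members was thus not confined to the microglial list. An r over 0.8 was reached by 17 of the 33 and by 0.417% of all candidates. These correlations share the libraries in which the members were low. Without OB and HC replicate 3, Tyrobp came 4th (r = 0.935 over 9 samples), the first 10 held 3 genes of the wider list and 3 of the 10 first taken, and an r over 0.8 was reached by 15 of the 33 and by 0.957% of all candidates.

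Of the 36 genes of the wider microglial list, 35 were tested, and 3 passed across the 4 regions (Sall1, Tlr2 and Ltc4s), a smaller share than the 16.5% of all genes. Without OB and HC replicate 3, an omission chosen after their values were seen, 7 passed, where 11.7% of 13726 genes did. Among its 5 genes of highest mean value were Itgam, the integrin chain CD11b, Sall1, a zinc finger transcription factor that maintains microglial identity, the protease Lgmn and the lysosomal protein Laptm5. Across regions, Itgam, Lgmn and Laptm5 had adjusted p of 0.513, 0.416 and 0.757. Sall1 was at 176 to 341 (BS), below the 362 to 523 measured elsewhere, and its log2 fold change was -0.90 ± 0.19 (SE), with an adjusted p of 0.0154. It was also the gene of the list least like the members (r = 0.245), and as deviations from the region means its r was -0.16. Which cells its reads came from was not tested. Tlr2, a receptor for bacterial lipopeptides, was at 0 to 6.13 in the CX and 14.5 to 53.0 elsewhere (adjusted p across regions 0.0186). Ltc4s, the leukotriene C4 synthase, was at 6.46 to 18.9 (OB), 7.67 to 11.3 (CX), 31.6 to 89.9 (HC) and 24.0 to 101 (BS) (adjusted p across regions 0.0164). In the CX samples 1 read was worth 1.26 and 1.53, so the CX values of Tlr2 and Ltc4s rest on few reads.

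Border macrophages of the meninges and vessels share Csf1r, Cx3cr1 and the C1q genes with microglia, and 9 of 10 of their markers were tested. Their adjusted p across regions ranged from 0.325 to 0.909 by limma. Mrc1, the mannose receptor, was at 55.0 to 537 (HC) and 74.1 to 323 elsewhere, Pf4 at 3.30 to 73.1 over all samples and Cd163 at 10.2 to 80.0. The 10 genes summed to 218 to 585 (OB), 161 to 1285 (HC), 276 to 508 (CX) and 415 to 791 (BS). Their median level per kilobase was 9.93, 14.8 times lower than that of the 9 members. Of 17 genes of lymphocytes, granulocytes and red cells, 8 were at 0 in every sample and 11 under 3 reads in every sample.

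The ligands and partners of the members were read in the same samples. For Csf1r, the ligand Csf1 had a mean of 239 ± 34.4 (SD, n = 3) for OB samples, 154 ± 73.6 (SD, n = 3) for HC samples, 177 ± 18.1 (SD, n = 2) for CX samples and 159.9 ± 45.6 (SD, n = 3) for BS samples (adjusted p across regions 0.327), and the second ligand Il34 did not exceed 38.7. Cx3cl1, the ligand of Cx3cr1, was at 95.7 to 507 (adjusted p 0.264), and Tgfb1, a cytokine that microglia need for their identity, at 10.2 to 67.6 (adjusted p 0.429). Downstream of C1q, C1ra and C1s1, the proteases of the C1 complex, had medians of 2.10 and 3.65, and C3 had a median of 8.75. C4b, cleaved by the C1 complex and close in sequence to C4a, with which reads may be shared, differed across regions (adjusted p = 0.000352), with means of 772 (OB), 645 (HC), 179.8 (CX) and 171 (BS). Serping1, the inhibitor of the C1 proteases, was at 28.3 to 219 (adjusted p 0.674). Cst3 encodes cystatin C, an inhibitor of cathepsins such as Ctss that astrocytes also make. It fell in the BS, where its mean was 8859 against 24221 to 29358 in the other regions (limma, log2 fold change -1.59 ± 0.25 SE, adjusted p = 0.00205). The astrocyte list summed to 109034 to 308772 in the BS, against 278739 to 330988 (OB), 301112 to 506905 (HC) and 609260 to 684520 (CX). Of its 12 genes 2 were called lower in the BS, and their median log2 fold change there was -0.27. Whether Cst3 fell beyond the astrocyte list was not tested. Of the 20 ligands and partners 19 were tested and 6 passed across regions, where 16.5% of all genes did. In the BS 2 of them were called lower, Cst3 and the complement regulator Csmd1, where 3.42% of all genes were.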

How the data were processed

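RNA-seq of 11 sorted astrocyte samples was read from 1 file per sample. Per the labels and the study's methods, the authors mapped reads to mm10 with STAR 2.5.0a, built count matrices over UCSC gene models and scaled them by DESeq2 1.20.0; the study names the values RPM. The deposited values are a normalized signal. Within a relative tolerance of 0.001, 100% were whole multiples of 1 step per sample, so reads were recovered. Whether counting used strand is not given in the sources used here.

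Values were tested as log2(value + 1) with limma 3.58.1 in R 4.3.3, with a mean-variance trend and region as the factor. Genes passing edgeR's filterByExpr (13875, with all 9 members) were tested, two-sided, and p-values were adjusted by Benjamini and Hochberg over all of them. A fold change is on that log2 scale and understates the change of low genes. A region was compared with the pooled samples of the other regions, and pairs of regions were compared within the fit over the 4 regions. Count tests on the recovered reads were alternatives (edgeR 4.0.16, DESeq2 1.42.0), as were other pseudocounts, scalings, filters, omission of each sample in turn, omission of OB and HC replicate 3 together (added after seeing the data) and a replicate block. The scripts were tested on simulated data. Exact 95% Poisson intervals cover counting error only.

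Genes named besides the members were the 5 most abundant and all called genes of the wider microglial list, 10 partners, 3 border macrophage genes, 6 activation genes and the 10 genes most like the members; others named were chosen after their values were seen. A gene that this rule names is not reported here. Members and lists were chosen with earlier results of these data known. Descriptions and plots were made in Python 3.11.15 (pandas 2.3.3, scipy 1.17.1, numpy 2.4.6, matplotlib 3.10.9).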

Additional observations from a re-analysis of the deposited data

How the results depend on the processing

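The counts of members called were 1 across regions, 1 between OB and BS, 1 between HC and BS and 1 in the BS, each of them P2ry12. All 4 were 0 when limma was run without a trend (P2ry12 in the BS, adjusted p = 0.0678) and when samples were scaled to the astrocyte list (0.238). That scaling also moved the median SD within regions from 0.81 to 1.05 and the median r between members from 0.742 to 0.807. P2ry12 passed in the BS by edgeR (adjusted p = 0.0440 with TMM and 0.0470 with RLE factors) and by DESeq2 (0.00323). Over all regions, samples that share a replicate number did not deviate together (15 pairs, median correlation 0.02, against -0.00253 for 30 pairs with other numbers). Between OB and HC, same-numbered samples correlated at 0.074 to 0.25 (3 pairs) and others at -0.22 to 0.028 (6 pairs), a hint of pairing from the data and not the design. Not every pair exceeded 0.1, so the numbers were not taken as pairs. With the replicate block, 2 members were called across regions, 1 between OB and BS, 2 between HC and BS and 0 in the BS (P2ry12 adjusted p = 0.0510; Tmem119 across regions, 0.0204), and the median r of deviations was 0.866. Leaving out 1 sample at a time gave 0 to 2 members across regions, 0 to 1 between OB and BS, 0 to 3 between HC and BS, 0 to 1 in the BS, and 2 to 5 genes of the wider microglial list across regions. The call across regions was lost without HC replicate 2, BS replicate 1 or BS replicate 2, that between OB and BS without OB replicate 1, OB replicate 2 or BS replicate 1, and that between HC and BS without HC replicate 1, HC replicate 2 or BS replicate 1. Without HC replicate 3, C1qc also passed across regions (adjusted p = 0.0434), and 5 genes of the wider list did. The median share between regions ran from 12.5% to 51.9%, the median SD within regions from 0.62 to 0.87 and the median r from 0.702 to 0.814. Fewer samples enter these fits; beyond that the cause was not tested. Leaving out OB and HC replicate 3 together, an alternative chosen after seeing the data, gave 4 members across regions, 4 between OB and BS, 4 between HC and BS, 1 between HC and CX and 1 in the BS, 7 genes of the wider list, a median share between regions of 76.3% and a median SD within them of 0.37. Of 567 values of single members under alternatives other than leaving out 1 sample, 544 changed neither direction nor call and 14 changed sign, none of them called. The log2 fold change of P2ry12 in the CX was 0.00249 by limma, -0.20 by edgeR with TMM factors, -0.18 with RLE factors, -0.18 by DESeq2, -0.018 with TMM scaling, -0.46 with astrocyte list scaling, -0.11 with the replicate block and -0.051 without OB and HC replicate 3, an omission that also put Csf1r in the OB at 0.11, Aif1 in the HC at 0.54 and Ctss in the BS at -0.19. In the BS, Ctss was at -0.028 by edgeR with TMM factors, and astrocyte list scaling put Csf1r at 0.28, C1qb at 0.20 and Aif1 at 0.012. Leaving out 1 sample at a time turned 14 fold changes of members, again none of them called. In the OB these ran from -0.27 to 0.85 for Cx3cr1, -0.56 to 0.25 for Csf1r, -0.074 to 1.11 for C1qa, -0.20 to 0.68 for C1qb and -0.75 to 0.029 for Ctss. In the HC they ran from -0.0057 to 0.90 for C1qa and -0.66 to 0.55 for Aif1. In the CX they ran from -0.66 to 0.34 for Cx3cr1, -0.16 to 0.13 for P2ry12, -0.20 to 0.16 for Csf1r, -0.31 to 0.016 for C1qa and -1.10 to 0.25 for Aif1. In the BS they ran from -0.52 to 0.029 for Csf1r and -0.059 to 0.26 for Ctss. With 2 or 3 samples a region and SDs near 0.81, intervals for single members span several fold.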

Other observations

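Of 20 genes raised in activated microglia 17 were tested, and the cytokine and chemokine genes among them were low in most samples. Il1b was listed at 0 in 4 samples and reached 101 in 1 BS sample, Ccl3 ran from 1.10 to 75.8, and Ccl4 was at 0 in 4 samples and at most 61.0. Tnf was at 0 in 6 samples, with a highest value of 23.7, and Clec7a did not exceed 9.77. Spp1 had a mean of 59.1 ± 16.1 (SD, n = 3) for BS samples, 39.2 ± 19.4 (SD, n = 3) for OB samples, 22.0 ± 24.5 (SD, n = 3) for HC samples and 18.9 ± 23.2 (SD, n = 2) for CX samples (adjusted p across regions 0.272). Of the list, 3 genes passed across regions, Apoe, Lpl and Axl, a share near the 16.5% of all genes, and of these Apoe (7785 to 29075) and Axl (772 to 2896) are also expressed by astrocytes.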
